A study of Mus musculus with 12 samples.

Results

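Transcripts of the teneurins, the latrophilins and the FLRT proteins were examined in dissected CA1 tissue of the mouse hippocampus. The set holds 10 genes (Tenm1 to Tenm4, Adgrl1 to Adgrl3 and Flrt1 to Flrt3) of the 48709 gene IDs counted, and all 10 passed the filter on low counts that left 16829 genes. Tenm1 was taken up because of its difference between the surgery groups in these libraries, and the other 9 because they are its family or its binding partners. Values of Tenm1 in that comparison are therefore a description and carry no test.

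Of the 12 libraries, 6 came from mice after ligation of a coronary artery, which causes myocardial infarction (MI), and 6 from mice after sham surgery (Sham). CA1 was dissected and snap frozen, and polyadenylated RNA was sequenced. The title of the series ties heart failure to impaired memory through the control of gene expression. The sources used here give no strain, age or time after surgery and do not tie each library to its own animal. The p-values therefore rest on the spread among libraries, part of which may be technical. Each group held libraries rich in Xist and libraries rich in Y-linked counts, so neither group came from a single animal.

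Teneurins are large membrane proteins whose outer part, held as a dimer, reaches across the synaptic cleft. Their main receptors there are the latrophilins, adhesion G protein-coupled receptors whose outer part is cut from the membrane part but stays bound to it. FLRT proteins are leucine-rich repeat proteins that bind latrophilins at another site and also bind UNC5 receptors. In the hippocampus, Tenm3 and Adgrl2 are known for complementary patterns that guide CA1 axons to the subiculum, and Adgrl2 and Adgrl3 for serving different inputs on the dendrites of CA1 pyramidal cells.

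The depth lay between 20764133 counts (Sham 1) and 35643127 counts (Sham 5). In 6 libraries (MI 1, MI 3, MI 4, Sham 1, Sham 2 and Sham 3) the counts of Y-linked genes exceeded those of Xist, and in the other 6 Xist exceeded them; the study did not define these sets as groups. Several libraries stood apart in field content. The summed level of 8 CA1 pyramidal markers was 705 CPM (counts scaled to library size by edgeR) in Sham 1, against 1081 to 1928 in the other Sham libraries and 1247 to 1599 in MI, and none of the 8 was at 0. The 8 dentate granule markers summed to 767 CPM in Sham 6, against a Sham median of 115. Sham 5 held the highest CA1 sum, 1928 CPM, and MI 1 the lowest dentate sum, 43.4 CPM. Sham 1 also held the highest sum of 5 neocortex markers, 434 CPM. The other Sham libraries held 160 to 268 CPM of these and the MI libraries 203 to 275 CPM. Its sum of 8 markers of meninges and fibroblasts, 376.7 CPM, was the highest as well. Results that rest on Sham 1 and Sham 6 are given with and without them. For Tenm2 to Tenm4 and Adgrl2 the values without Sham 5 are given too. In bulk tissue, fewer cells of a type and less RNA per cell cannot be told apart.

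The teneurins are described first. Tenm1 (ENSMUSG00000016150) lies on chromosome X, at chrX:42527866-43429126 on the minus strand of mm10, and its paralogues are autosomal: Tenm2 (ENSMUSG00000049336) at chr11:36006656-37235964, minus strand, Tenm3 (ENSMUSG00000031561) at chr8:48227682-48843951, minus strand, and Tenm4 (ENSMUSG00000048078) at chr7:96171246-96911093, plus strand. The start regions of the 4 genes differ in composition, and they are printed because the teneurins are the family whose levels are compared most closely here. Each RefSeq window (GRCm38.p6) runs from 250 bases before the annotated start to 50 bases after it, 5′ to 3′ on the gene's strand, with every CG in capitals. The windows are chrX:43274735-43275034 (minus) for Tenm1, chr11:36944192-36944491 (minus) for Tenm2, chr8:48674641-48674940 (minus) for Tenm3 and chr7:96170994-96171293 (plus) for the more upstream of the pair of Tenm4 starts.
Tenm1: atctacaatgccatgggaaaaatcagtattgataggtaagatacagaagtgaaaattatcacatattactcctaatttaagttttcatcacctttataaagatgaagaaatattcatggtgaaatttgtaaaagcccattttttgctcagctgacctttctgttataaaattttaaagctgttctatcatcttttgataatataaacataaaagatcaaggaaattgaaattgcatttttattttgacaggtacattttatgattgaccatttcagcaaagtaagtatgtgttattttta
Tenm2: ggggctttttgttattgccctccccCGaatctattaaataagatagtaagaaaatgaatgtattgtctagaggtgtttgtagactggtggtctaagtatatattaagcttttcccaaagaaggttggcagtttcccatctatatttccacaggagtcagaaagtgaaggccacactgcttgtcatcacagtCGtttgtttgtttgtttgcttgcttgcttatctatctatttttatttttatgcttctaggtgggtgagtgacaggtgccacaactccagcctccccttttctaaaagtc
Tenm3: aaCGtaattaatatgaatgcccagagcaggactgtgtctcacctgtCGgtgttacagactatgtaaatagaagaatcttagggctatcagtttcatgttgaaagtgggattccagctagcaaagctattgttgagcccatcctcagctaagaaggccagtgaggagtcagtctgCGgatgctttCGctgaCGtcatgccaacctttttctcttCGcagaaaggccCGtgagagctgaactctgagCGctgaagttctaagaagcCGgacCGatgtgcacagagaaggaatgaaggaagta
Tenm4: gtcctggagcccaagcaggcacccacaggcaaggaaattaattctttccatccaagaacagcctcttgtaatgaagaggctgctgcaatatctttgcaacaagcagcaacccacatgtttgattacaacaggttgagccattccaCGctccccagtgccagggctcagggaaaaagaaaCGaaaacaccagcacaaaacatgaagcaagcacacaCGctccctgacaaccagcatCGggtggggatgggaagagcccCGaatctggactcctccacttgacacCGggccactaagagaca
The Tenm1 window held 0 CG pairs at 27% G and C. Tenm2 held 2, Tenm3 10 and Tenm4 6, with 12 at the other Tenm4 start (chr7:96211421-96211720), and the median of 32851 RefSeq windows of 27025 genes was 7 CG pairs at 52.7% G and C. The letters TGACGTCA, which read the same on both strands and form the cyclic AMP response element, were found in the Tenm3 window and in 1.79% of all windows. The letters TATAAA, searched on both strands, were found in the Tenm1 window and in 13.6% of all windows. A match is a description of these letters, not of a bound factor. For Tenm1, Tenm2 and Tenm3 the RefSeq start lies inside the longer GENCODE gene, so other starts exist.

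Across all 10 genes, windows were matched for 9, with 12 windows in all. Latrophilin windows held between 4 and 40 CG pairs: Adgrl2 had 4, Adgrl1 28, and the 3 starts of Adgrl3 had 40, 21 and 20. Flrt2 had 14 and Flrt3 had 8. TATAAA was also found in the Adgrl2 window and in 1 Adgrl3 window.

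Tenm1, the X-linked teneurin, was the gene that led to the choice of this family. Its level in MI ran from 42.1 to 62.1 CPM with a median of 51.5, and in Sham from 61.6 to 80.9 CPM with a median of 68.3. All 6 MI libraries were below the Sham median, and MI 2 alone was above the lowest Sham library, so the groups overlapped by that 1 library. Mean levels were 52.0 ± 7.91 CPM in MI and 69.4 ± 8.02 CPM in Sham (SD, n = 6 each), a fitted log2 fold change (MI minus Sham) of -0.42 with a standard error (SE) of 0.10, or 0.749 times the Sham level. Sham 2, at 80.9 CPM, was the highest library and MI 3, at 42.1 CPM, the lowest. The 8 markers of meninges and fibroblasts, none of them at 0, summed to between 102 and 198 CPM in MI and between 74.8 and 376.7 CPM in Sham, and their log2 score in MI minus Sham was -0.65. With this score and the dentate score in the model the Tenm1 value was -0.30 (SE 0.10). It was -0.42 with the dentate score alone and -0.40 with 1 surrogate variable. The part of meningeal content in the Tenm1 difference was not tested.

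**Figure D1:**
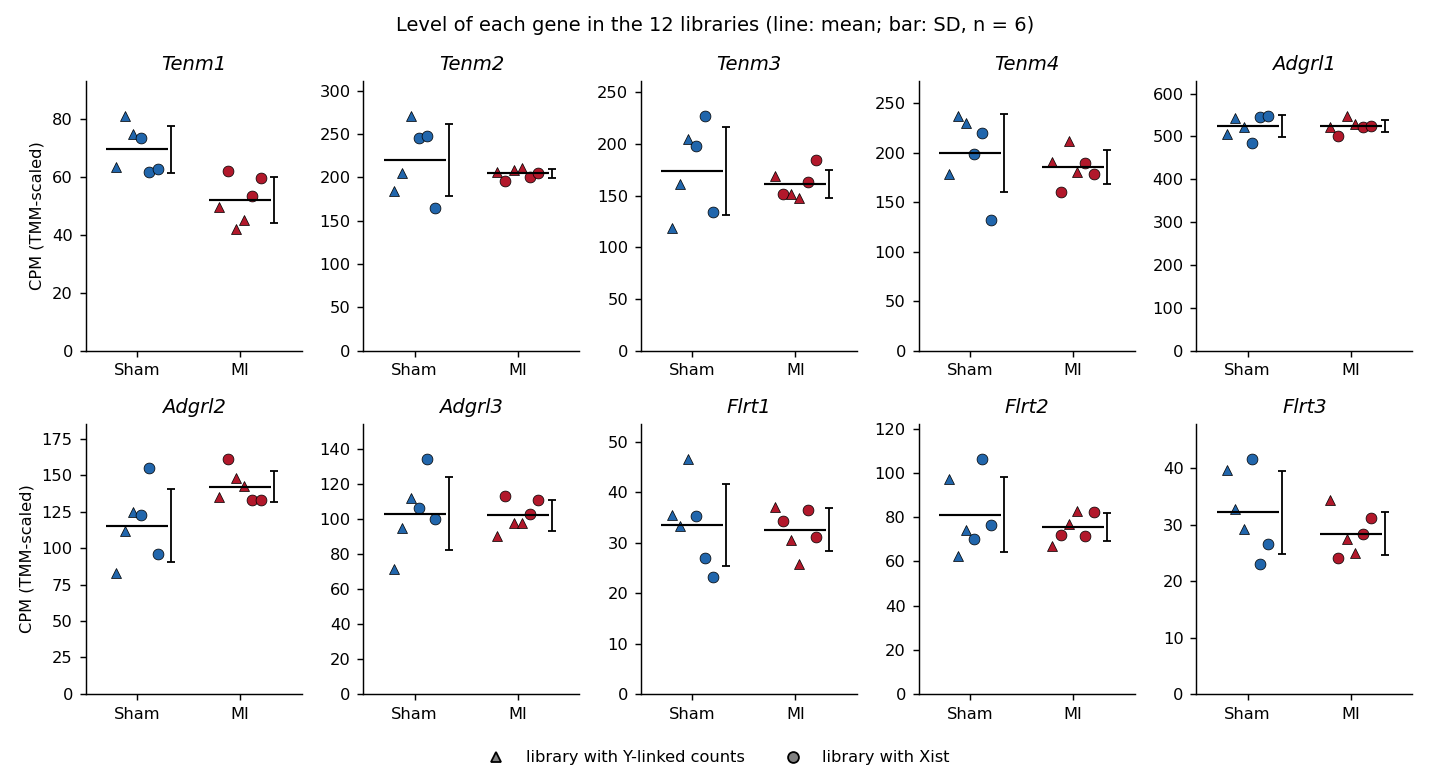
Level of each of the 10 genes in CPM, with 1 point per library (triangles, Y-linked counts; circles, Xist), lines for group means and bars for SD (n = 6). Tenm1 runs from 42.1 to 62.1 CPM in MI and from 61.6 to 80.9 CPM in Sham, and the groups of every one of the 10 genes overlap.

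Tenm2, the most abundant teneurin by length, had nearly the same level in every MI library, from 196.2 to 210.8 CPM with a median of 205.4. Sham ran from 165.1 to 270.5 CPM with a median of 225.1. All 6 MI libraries were below that median, while Sham 1 and Sham 6 were below every MI library. Tenm3, the teneurin of the CA1 to subiculum projection, ran from 147.9 to 184.3 CPM in MI (median 157.7) and from 118.4 to 227.0 CPM in Sham (median 179.5). Its MI range lay within the Sham range. Tenm4, known for its part in myelination and in axon guidance, ran from 160.1 to 211.8 CPM in MI (median 185.1) and from 131.7 to 236.8 CPM in Sham (median 209.2). Its lowest Sham library was again Sham 6.

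Over all 16829 genes, the quasi-likelihood test of edgeR, adjusted by Benjamini-Hochberg, called 0 (0%) at an adjusted p under 0.05. In limma-voom 0 were called as well. DESeq2 called 11 of the 32346 genes with any count (0.034%), a total that includes any genes it left without an adjusted p. Among the 9 genes that carry a test, 0 were called. At an unadjusted p under 0.05 were 1270 genes (7.55%), and Adgrl2 was the single one of the 9, at an unadjusted p of 0.0299. For Tenm2 the log2 fold change was -0.10 (SE 0.10, 95% interval -0.33 to 0.12, adjusted p = 0.865). For Tenm3 it was -0.11 (SE 0.14, interval -0.42 to 0.20, adjusted p = 0.902), and for Tenm4 -0.11 (SE 0.12, interval -0.37 to 0.16, adjusted p = 0.891). Without Sham 1 and Sham 6 these values were -0.24, -0.29 and -0.26, with SEs of 0.07, 0.09 and 0.07, and none was called (adjusted p = 0.682 each in edgeR). With only Sham 5 left out, the library with the highest CA1 sum, they were -0.07, -0.02 and -0.08. In limma-voom with sample weights they were -0.18, -0.16 and -0.18. Tenm1 was at -0.48 without Sham 1 and Sham 6.

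**Figure D2:**
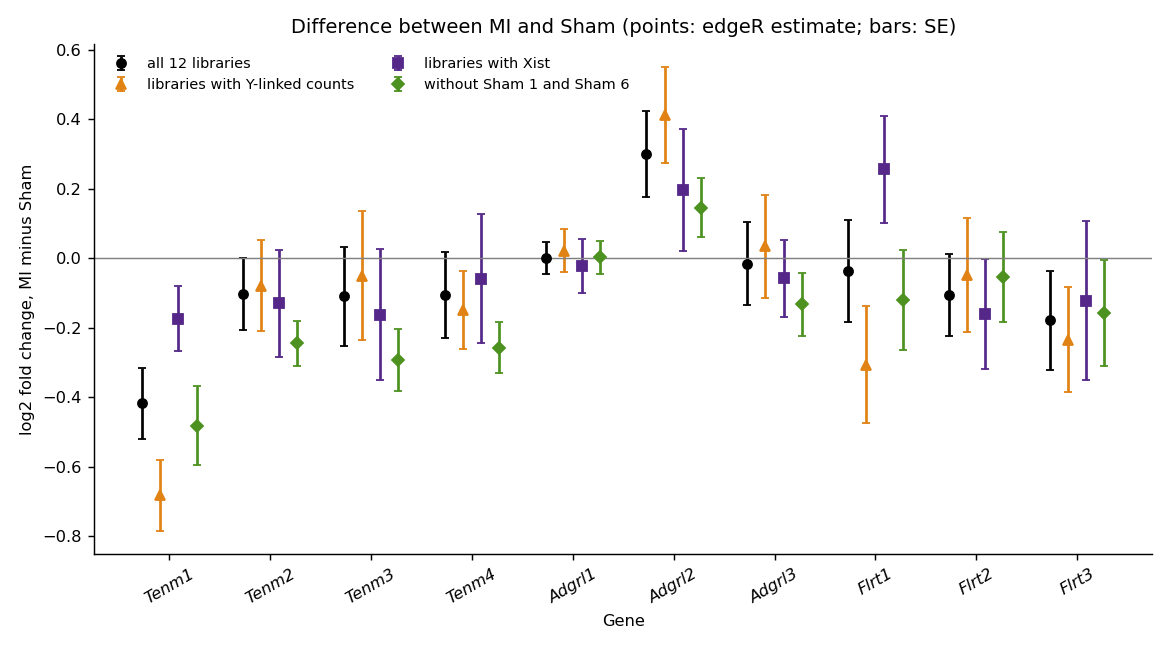
Log2 fold change, MI minus Sham, of each gene with its SE, for all 12 libraries, within each library set and without Sham 1 and Sham 6. Tenm1 lies at -0.42 with all 12 libraries and Adgrl2 at 0.30.

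The authors' deposited table of genes lower in MI holds all 4 teneurins among 517 genes, and neither that table nor the deposited table of 542 higher genes holds a latrophilin or a FLRT gene. Of the 16829 tested genes 2.97% are in the lower table and 3.13% in the higher one, and since Tenm1 was chosen on this contrast nothing is read from the count of 4. In the authors' deposited table the log2 fold change of Tenm1 is -0.35, given as a description without its p. Those of the other teneurins are -0.22 for Tenm2 (adjusted p 0.0278), -0.26 for Tenm3 (adjusted p 0.0444) and -0.21 for Tenm4 (adjusted p 0.0297). The fold changes from the counts are smaller for Tenm2, Tenm3 and Tenm4, and larger for Tenm1.

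The libraries where the deposited log2 values and the counts part were compared gene by gene, each as its distance from its own mean over the 12 libraries. In Sham 6 the authors' deposited table places Tenm4 0.57, Tenm2 0.41 and Tenm3 0.40 higher than the counts do. In Sham 1 it places Tenm3 0.47, Tenm2 0.26 and Tenm4 0.14 higher. For Tenm1 the 2 libraries differ by 0.08 in Sham 6 and by -0.10 in Sham 1. The deposited values thus place Sham 1 and Sham 6 higher for 3 of the 4 teneurins. They place Sham 5, with the highest CA1 marker sum, lower, by -0.33 for Tenm3, -0.16 for Tenm2 and -0.07 for Tenm4. For Tenm3, Sham 1, Sham 6 and Sham 5 lie at -0.48, -0.29 and 0.46 in the counts. In the deposited values they lie closer together, at -0.01, 0.11 and 0.13. These libraries also lie closer together there for Tenm2 and Tenm4. For Tenm1 other libraries part more, with 0.23 in MI 4 and -0.20 in Sham 4. The sources used here do not say how the deposited log2 values were made, and the step behind these differences was not tested.

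**Figure D3:**
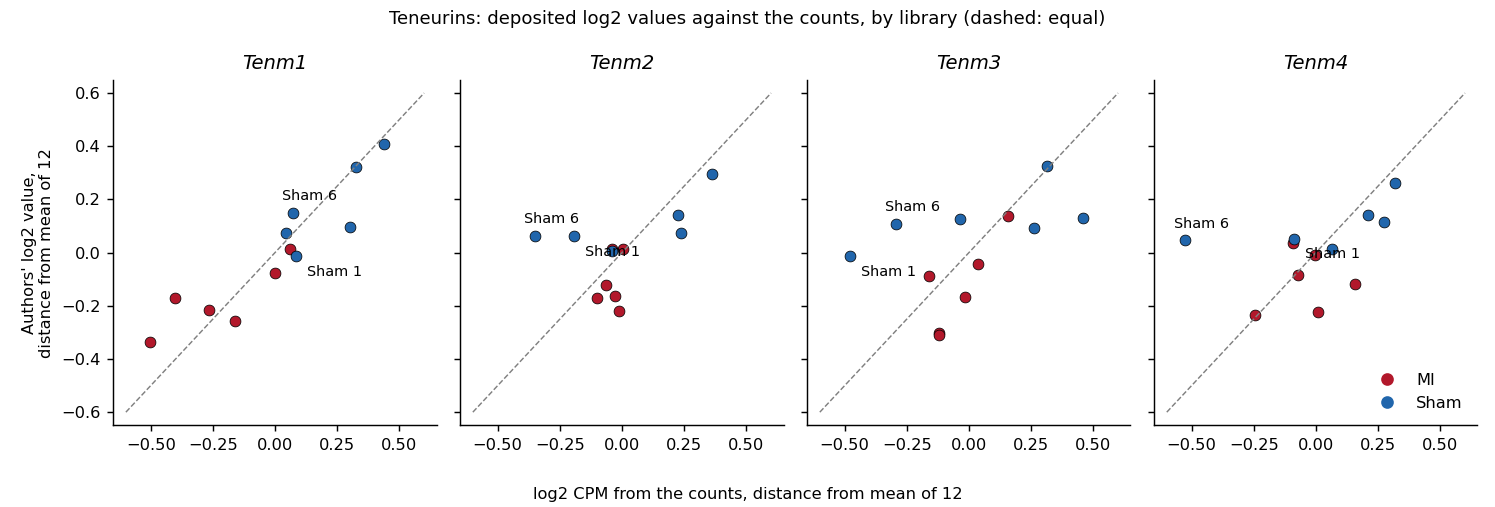
Deposited log2 value against log2 CPM from the counts for each teneurin, both as the distance from the mean of 12 libraries, with the line of equality dashed. Sham 6 lies 0.57 above the line for Tenm4 and 0.08 above it for Tenm1.

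The latrophilins, receptors of the teneurins, held the steadiest gene of the set. Adgrl1 (ENSMUSG00000013033; chr8:83900105-83941954, plus strand), the first described receptor of black widow spider toxin, ran from 501.8 to 547.2 CPM in MI and from 483.6 to 547.0 CPM in Sham. Its medians were 523.8 and 532.1 CPM, and the highest of the 12 libraries was 1.13 times the lowest. The log2 fold change was 0.00051 (SE 0.05, interval -0.10 to 0.10, adjusted p = 0.999).

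Adgrl2 (ENSMUSG00000028184; chr3:148815583-148990555, minus strand) was the gene with the largest positive log2 fold change of the 10. MI ran from 133.2 to 160.9 CPM with a median of 139.1, and Sham from 82.6 to 154.8 CPM with a median of 117.3. All 6 MI libraries were above the Sham median, and Sham 5 was above 5 of the 6 MI libraries. Means were 142.3 ± 10.9 CPM in MI and 115.5 ± 25.1 CPM in Sham (SD, n = 6 each). The log2 fold change of 0.30 (SE 0.12, interval 0.03 to 0.57) did not pass after adjustment in edgeR (adjusted p = 0.624). It was 0.15 without Sham 1 and Sham 6, 0.40 without Sham 5, and 0.17 with dentate and meningeal marker scores in the model. The lowest level, 82.6 CPM, was in Sham 1, the library with the lowest CA1 marker sum, and the CA1 score was 0.35 higher in MI on the log2 scale. The part of CA1 content in the Adgrl2 difference was not tested.

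Adgrl3 (ENSMUSG00000037605; chr5:81020138-81825133, plus strand), a latrophilin also studied for its link to attention deficit, ran from 90 to 112.9 CPM in MI (median 100.3) and from 71.2 to 133.9 CPM in Sham (median 103.1). Sham 1 held the lowest and Sham 5 the highest value, as they did for the CA1 markers. Its log2 fold change was -0.02 (SE 0.12, interval -0.27 to 0.24, adjusted p = 0.984).

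The FLRT genes encode ligands of latrophilins and UNC5 receptors. Flrt1 (ENSMUSG00000047787; chr19:7092001-7105729, minus strand) ran from 25.9 to 37.1 CPM in MI (median 32.7) and from 23.1 to 46.5 CPM in Sham (median 34.3). Flrt2 (ENSMUSG00000047414; chr12:95692226-95785215, plus strand) ran from 67.1 to 82.9 CPM in MI (median 74.4) and from 62.3 to 106.1 CPM in Sham (median 75.3). Flrt3 (ENSMUSG00000051379; chr2:140650914-140671469, minus strand) ran from 24.2 to 34.5 CPM in MI (median 27.9) and from 23.1 to 41.6 CPM in Sham (median 31.0). For each of the 3 genes the MI range lay within the Sham range. Log2 fold changes were -0.04 for Flrt1 (SE 0.15, adjusted p = 0.974), -0.10 for Flrt2 (SE 0.12, adjusted p = 0.888) and -0.18 for Flrt3 (SE 0.14, adjusted p = 0.811). With dentate and meningeal scores in the model the Flrt3 value was -0.02 (SE 0.11), and with 1 surrogate variable -0.10.

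Over the 10 genes, 8 log2 fold changes were negative with a median of -0.10, beside 52.4% negative and a median of -0.01 over all tested genes. Tenm1, chosen on this contrast, is among the 8, so nothing is read from this count or median. No gene of the 10 had groups that did not overlap, against 0.16% of tested genes with every MI library below every Sham library and 0.25% with every one above. The coefficient of variation was larger in Sham for 9 of the 10 genes, beside 76.2% of all tested genes, so a wider Sham spread was general to these libraries. For Tenm2 it was 2.58% in MI and 18.8% in Sham, and Tenm1 was the exception at 15.2% and 11.6%.

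Levels of different genes were compared as CPM per kilobase of merged exons. Adgrl1 stood at 61.1 ± 2.31 (SD, n = 12), and it was the only gene whose range did not overlap that of the next. Tenm2 followed at 18.5, Tenm3 at 16.4, Flrt2 at 10.1, Tenm4 at 9.14 and Adgrl2 at 9.08 CPM per kilobase. The lowest were Flrt3 at 6.23, Adgrl3 at 5.77, Flrt1 at 5.62 and Tenm1 at 3.42 CPM per kilobase. Neighbours below Adgrl1 in this order had overlapping ranges over the 12 libraries. With the longest annotated transcript as the length, 4 genes kept their rank (Adgrl1, Tenm2, Flrt1 and Tenm1), Adgrl2 moved from rank 6 to rank 3, at 21.3 CPM per kilobase, and Adgrl3 from rank 8 to rank 5, at 15.1 CPM per kilobase.

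**Figure D4:**
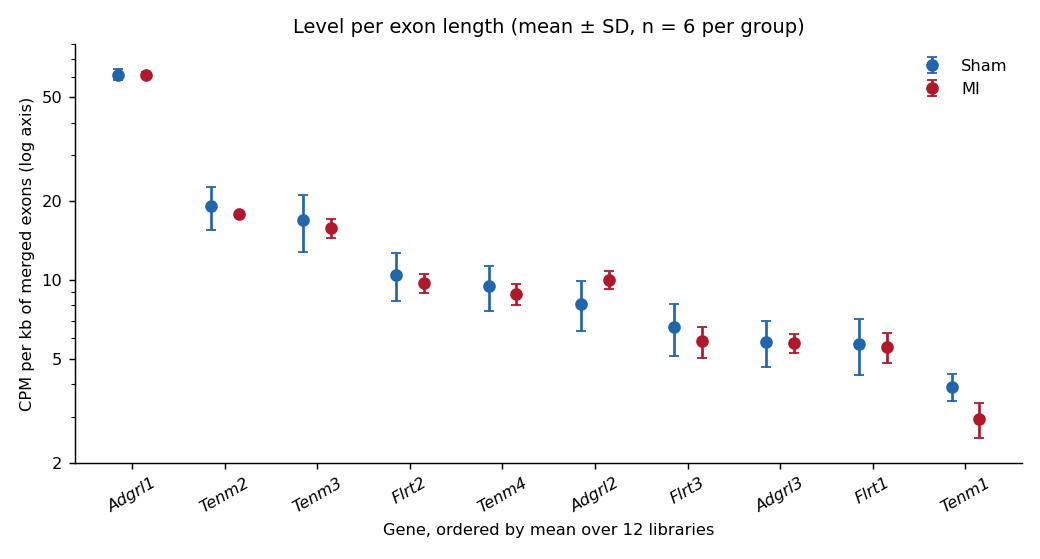
Mean level per kilobase of merged exons with its SD (n = 6 per group) on a log axis, genes ordered by the mean of 12 libraries. Adgrl1 stands at 61.1 and Tenm1 at 3.42 CPM per kilobase.

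Within each family the shares of the summed level per kilobase showed which member dominated. Adgrl1 held 79.5% of the latrophilin sum in MI and 81.5% in Sham, Adgrl2 13.0% and 10.8%, and Adgrl3 7.47% and 7.69%. Among teneurins Tenm2 and Tenm3 held most: Tenm2 39.3% in MI and 38.7% in Sham, and Tenm3 34.8% and 34.1%. Tenm4 held 19.4% and 19.2%, and Tenm1 6.47% and 8.08%. Flrt2 was the main FLRT gene, at 46.2% in MI and 46.1% in Sham. The latrophilin shares depend on the length used: with the longest annotated transcript Adgrl1 held 62.5% in MI and 65.4% in Sham, Adgrl2 22.9% and 19.3%, and Adgrl3 14.6% and 15.3%.

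Since Tenm1 is X-linked, libraries with Xist were compared with those with Y-linked counts, with the surgery group in the model; the choice of genes did not use this split. Of 16829 genes 50 were called (0.297%), and 0 of the 10. Tenm1 averaged 62.1 CPM with Xist and 59.3 CPM with Y-linked counts, a log2 difference (Xist minus Y-linked) of 0.10 (SE 0.10, interval -0.12 to 0.32, adjusted p = 0.603). The largest of the 10 was that of Adgrl3, at 0.24 (SE 0.10, adjusted p = 0.228), and Tenm4 was at -0.19 (adjusted p = 0.392).

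The surgery difference was then taken within each set. For Tenm1 the 3 MI libraries with Y-linked counts averaged 45.6 CPM against 73.0 CPM in the 3 Sham libraries, and those with Xist 58.4 against 65.9 CPM. The log2 fold changes were -0.68 and -0.17, a description for the reason given above. The 10 oligodendrocyte markers, none of them at 0, moved with this contrast. They summed to between 5841 and 6464 CPM in MI 1, MI 3 and MI 4 and to between 2780 and 3472 CPM in Sham 1, Sham 2 and Sham 3. Among Xist libraries they ran from 5118 to 6272 CPM in MI and from 4794 to 5652 CPM in Sham. Over all 12 libraries their log2 score in MI minus Sham was 0.53, and their part in the Tenm1 difference between MI and Sham was not tested. Flrt1 had opposite signs, -0.31 among Y-linked libraries and 0.26 among Xist libraries, and the difference between them was 0.56 (SE 0.25, adjusted p = 0.601 in edgeR's quasi-likelihood test). In that test of the difference 2 of 16829 genes were called (0.0119%), and 0 of the 9 genes other than Tenm1. At an unadjusted p under 0.05 were 1386 genes (8.24%), and 1 of the 9, Flrt1, at an unadjusted p of 0.0496. Adgrl2 was positive in both sets, at 0.41 and 0.20, and Tenm2, Tenm3 and Tenm4 were negative in both.

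Whether the genes followed the cell types and fields of the dissection was asked by correlating their log2 CPM with 6 marker scores over the 12 libraries, after subtracting each group's mean. Of 60 relations 0 passed after Benjamini-Hochberg adjustment in a permutation test with 100000 resamples, and the smallest adjusted p was 0.283. Adgrl3 followed the CA1 score most closely, with Pearson's r of 0.90 (permutation p = 0.00907) and Spearman's rho of 0.59 (permutation p = 0.0631). Without Sham 1 and Sham 5, the libraries farthest from the median score, r was 0.31, so the relation rests on them. Adgrl2 gave r of 0.87 (permutation p = 0.0120) and rho of 0.60 (permutation p = 0.0671), and r of 0.35 without those libraries. Within the 6 libraries with Y-linked counts r was 0.99 for Adgrl2 and for Adgrl3. Within the 6 with Xist it was 0.81 and 0.92. The Y-linked set holds Sham 1 and the Xist set holds Sham 5, so these values do not show the relation apart from those libraries.

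Flrt3 ran the other way. Its r with the CA1 score was -0.72 (permutation p = 0.0236) and rho -0.75 (permutation p = 0.0136), with r of -0.58 without Sham 1 and Sham 5. With the score of meninges and fibroblasts its r was 0.75 (permutation p = 0.0192) and rho 0.78 (permutation p = 0.0107), with r of 0.66 without Sham 1 and Sham 6. Flrt1 gave r of -0.72 with the dentate score (permutation p = 0.0167) and rho of -0.76 (permutation p = 0.00848), and r of -0.47 without MI 1 and Sham 6. None of these passed adjustment over the 60 relations. Tenm1 had r of 0.48 (permutation p = 0.104) and rho of 0.56 (permutation p = 0.0600) with the score of meninges and fibroblasts, and r of 0.79 without Sham 1 and Sham 6. Within the 6 libraries with Y-linked counts that r was -0.37, and within the 6 with Xist 0.59. With the oligodendrocyte score r of Tenm1 was -0.25 (permutation p = 0.390) and rho -0.31. Within the Y-linked libraries that r was 0.08, and within the Xist libraries 0.75.

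**Figure D5:**
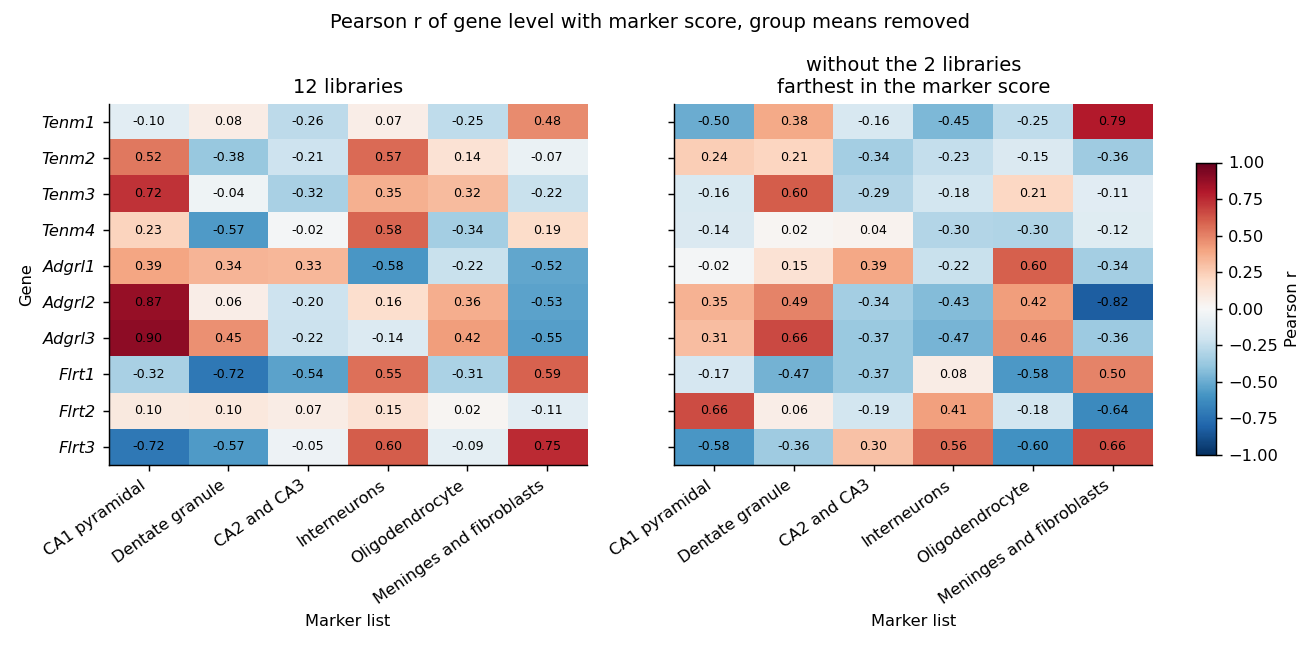
Pearson's r of each gene with each of 6 marker scores over 12 libraries after removal of group means, and again without the 2 libraries farthest from the median score. Adgrl3 and the CA1 score stand at 0.90 with all libraries and at 0.31 without Sham 1 and Sham 5.

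Other partners of these proteins were taken from a list of 25 genes, 15 at the cell surface and 10 inside the cell, and all 25 were tested. In MI against Sham edgeR called 0 of 25 higher and 0 lower; 12 log2 fold changes were negative and the median was 0.01. The 4 with the smallest unadjusted p were Gna12, Unc5b, Unc5d and Shank2. Gna12, a G protein subunit to which latrophilins can couple, was at 0.17 (SE 0.07, adjusted p = 0.611). Unc5b, a netrin and FLRT receptor, was at 0.30 (SE 0.13, adjusted p = 0.624), and its relative Unc5d at -0.89 (SE 0.38, adjusted p = 0.635), with 35.2 ± 9.84 CPM in MI and 65.6 ± 35.2 CPM in Sham (SD, n = 6 each). Sham values of Unc5d ran from 20.4 to 105.1 CPM, around the whole MI range. With dentate and meningeal scores in the model Unc5d was at -0.17, Unc5b at 0.18 and Gna12 at 0.09, and with 1 surrogate variable Unc5d was at -0.44. With Xist alone Unc5b was at 0.06. Shank2, a postsynaptic scaffold, was at -0.12 (SE 0.06, adjusted p = 0.665).

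Within the libraries with Y-linked counts alone edgeR called 211 of 16777 genes (1.26%), and 2 of the 25 partners: Unc5d at -1.47 (adjusted p = 0.0485) and Gna12 at 0.35 (adjusted p = 0.0492). With Xist alone the values were -0.08 for Unc5d and 0.0038 for Gna12 (adjusted p = 0.999 each). In that set edgeR called 0 of 16975 genes, and so 0 of the 25, and nothing about the partners is read from this count.

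The genes whose pattern was most like that of Tenm1 were ranked among 12646 genes by Pearson's r of log2 CPM over the 12 libraries after removal of group means. They were Ncam2 (r 0.89, rho 0.89), Pcdhga7 (r 0.84, rho 0.83), Apc (r 0.84, rho 0.83), Atp8a2 (r 0.83, rho 0.73) and Pdgfra (r 0.82, rho 0.80). As the top of a ranking over all genes these values carry no p. Ncam2 and Pcdhga7 encode adhesion molecules of neurons, and Pdgfra marks oligodendrocyte precursors. The nearest of the other 9 genes was Flrt1 at r of 0.49 and rank 497, and the farthest was Flrt2 at r of -0.52.

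Some reads may not be told apart from those of overlapping genes, since the sources used here do not say whether counting used strand. Exons of Tenm1 share 1465 bases with Sh2d1a on the other strand, which had at most 4 counts in a library. Tenm3 shares 114 bases with Gm19744 (at most 297 counts) and Adgrl3 shares 1582 bases with Gm16054 (at most 98 counts). Tenm2 and the 3 FLRT genes share none.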

How the data were processed

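RNA from CA1 tissue was sequenced in 12 libraries, 6 MI and 6 Sham, with single-end reads and a TruSeq kit for polyadenylated RNA, per the labels' protocols. The deposited files hold raw read counts for each Ensembl gene, as whole numbers; FastQC 0.11.5, STAR 2.5.2b, featureCounts, Subread 1.5.1 and mm10 are named in the submitters' processing notes. The authors also deposited tables of lower and higher genes with a log2 fold change, log2 values per library and adjusted p-values; the sources used here do not say how.

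Gene symbols and positions are those of GENCODE M21 on mm10 (48349 of 48709 IDs). Counts were filtered (filterByExpr, 16829 genes), scaled by TMM and fitted in edgeR 4.0.16 (R 4.3.3) with the robust quasi-likelihood test, two-sided, without covariates, with Benjamini-Hochberg adjustment over all genes and a threshold of 0.05. CPM are TMM-scaled, with a prior count of 2 on the log2 scale. Totals of 20764133 to 35643127 counts gave every one of the 10 genes at least 492 counts in each library. Alternatives were DESeq2 1.42.0, limma-voom (limma 3.58.1), sva 3.50.0, other scalings and filters, covariates, library subsets and leaving out each library. The script was tested on simulated data. No pair of 30 within groups was a duplicate (chi-square per degree of freedom at least 6.22).

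All 10 genes are described; of 25 partner genes those called, or otherwise the 4 with the smallest unadjusted p, are named, as are the 5 genes most like Tenm1 with a mean of at least 50 counts. The genes and lists were chosen with earlier results of these data known. Unc5d and Gna12 in the library subset were named after their values were seen. For partner genes, the comparison of the library sets is not reported here.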

Additional observations from a re-analysis of the deposited data

How the results depend on the processing

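Of 27 alternatives to the comparison of MI with Sham, 25 kept the count of called genes at 0; DESeq2 gave 11 and the libraries with Y-linked counts alone gave 211, where 2 partner genes were called. In those libraries Tenm1 was at -0.68. Leaving out each library in turn left 0 genes and 0 partners called, and gave -0.48 to -0.36 for Tenm1, -0.17 to -0.04 for Tenm2, -0.20 to -0.02 for Tenm3, -0.20 to -0.05 for Tenm4, 0.22 to 0.40 for Adgrl2, -0.26 to -0.09 for Flrt3 and -0.17 to -0.01 for Flrt2. The signs of Tenm1 to Tenm4, Adgrl2 and Flrt3 held in all 27. Adgrl1 lay at 0.00051 and changed sign in 12, among them RLE scaling (-0.00019), library size only (-0.0028), the stricter filter (-0.0011), the libraries with Xist alone (-0.022), dentate and meningeal scores as covariates (-0.023) and 1 surrogate variable (-0.0051); single libraries left out gave -0.022 to 0.012. Adgrl3 turned positive with the replicate block (0.0052) and in the Y-linked libraries (0.034), and ran from -0.10 to 0.073 with single libraries left out. Flrt1 turned positive in the libraries with Xist (0.26), with both scores (0.066) and with 1 surrogate variable (0.046), and ran from -0.12 to 0.078. Flrt2 was at 0.0099 in limma-voom. Between the library sets the ranges over single libraries left out crossed 0 for Tenm2 (-0.078 to 0.047), Adgrl1 (-0.035 to 0.0054) and Flrt2 (-0.044 to 0.13). The cause of these changes was not tested. With transcript length in place of merged exons 4 of 10 genes kept their rank. The replicate block called 0 genes and left Tenm1 at -0.42; deviations of same-numbered libraries correlated at -0.35 to 0.40, and 3 of 6 libraries correlated best with their own number, so the evidence on pairing is mixed and the numbers were not taken to pair the libraries. Correlations within the library sets hold 6 libraries each and were not tested.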
